A study of Mus musculus with 9 samples.

Results

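The NF-kappa B system was followed in mouse mammary fibroblasts through 10 genes: 4 transcription factor subunits (Nfkb1, Nfkb2, Rela and Relb), 3 negative regulators or relatives of them (Nfkbia, Nfkbiz and Tnfaip3) and 3 target genes (Birc3, Icam1 and Vcam1). The genes were taken by name from a table of 11931 genes. All 10 were present, and all 10 passed the filter on low values, as did 10639 genes in all. The fibroblasts were taken from mammary fat pads of BALB/c mice, females aged 12 weeks, and recovered on collagen for 1 week before the cultures were set up. They were then co-cultured with 4T1-GFP cells for 5 days, co-cultured with 4T1-GFP cells for 3 days, or kept in monoculture for 5 days, with 3 libraries in each group. 4T1 is a mouse mammary carcinoma line of BALB/c origin, and its green fluorescent protein (GFP) allowed the carcinoma cells to be sorted away. In every group the cells sequenced were GFP-negative and stained for podoplanin, which marks fibroblasts of the breast and other tissues. Neither the number of mice behind each library nor whether replicates were separate cultures is stated, so p-values measure the spread between these libraries, which may be technical. The table column taken as 5-day co-culture replicate 2 names no carcinoma cells, and among the 10 genes only Icam1 lost a 5-day call without it.

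NF-kappa B factors are dimers that bind DNA through a shared Rel homology domain. In resting cells, inhibitors of the I-kappa B family hold them in the cytoplasm. Signals from cytokine receptors activate a kinase complex that has the inhibitor degraded in the classical pathway, or has the Nfkb2 precursor processed in the alternative pathway. Among the genes that the dimers then switch on are inhibitors of the pathway itself, survival factors, chemokines and adhesion molecules. In fibroblasts the pathway is known for the inflammatory programme of wounds, inflamed joints and tumour stroma.

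Promoter sequence was available for 6 of the 10 genes, as 9 RefSeq windows (GRCm38.p6) running from 250 bases before to 50 bases after a transcript start. They were searched on both strands for the NF-kappa B consensus, which spans 10 bases. A match occurred in 5 of the 9 windows, those of 3 genes, Tnfaip3, Nfkbia and Nfkb2, and in 8.46% of all 32851 windows. Some genes had more than 1 window. A related form that reads GGG, any 2 bases and then TTTCC also occurred in windows of each of those 3 genes. It occurred in 1.63% of all windows and is not a subset of the consensus, being looser just after GGG. The windows of Birc3, Icam1 and Rela and another window of Tnfaip3 held no match, which says only that these letters are not in these windows. Nfkb1, Relb, Nfkbiz and Vcam1 were not searched. Stretches with a match are shown to set the letters beside the RNA levels that follow, on the strand of the gene, 5′ to 3′, with matches in capitals.
Tnfaip3 (chr10:19015411-19015565, minus strand): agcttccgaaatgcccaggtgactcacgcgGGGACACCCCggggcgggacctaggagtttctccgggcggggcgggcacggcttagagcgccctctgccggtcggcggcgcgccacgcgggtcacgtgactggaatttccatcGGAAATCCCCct
Nfkbia (chr12:55492648-55492706, minus strand): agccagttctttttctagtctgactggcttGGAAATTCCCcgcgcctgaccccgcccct
Nfkb2 (chr19:46304688-46304717, plus strand): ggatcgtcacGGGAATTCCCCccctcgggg
Positions count from the RefSeq transcript start of each window. The first stretch ends 1 base before a Tnfaip3 start. It holds a match in both directions, whose first base lies at -125, and one on the opposite strand at -12. The Nfkbia stretch also ends 1 base before its start, with its match at -29 on the opposite strand. In the Nfkb2 stretch the capitals cover overlapping matches that begin at -39 and -38, and a further match, not printed, begins at -11. Overlapping windows of other Nfkb2 starts held matches at -236, 10 and -225, also not printed. Those at 10 and -225 are the same bases, counted from different starts and so present in both windows. The Tnfaip3 and Nfkb2 stretches lie inside the annotated spans of their genes, given below. They precede a RefSeq transcript start and not the whole gene, whereas the Nfkbia stretch lies before its gene. A match is a description of letters and not evidence of binding.

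The deposited values were read counts divided by a library factor, called normalised counts below, and were compared on the scale log2(value + 1) with limma in a fit of all genes, with Benjamini-Hochberg adjustment over the 10639 genes and a threshold of 0.05. Libraries held between 1459381 and 1987168 reads after 5 days of co-culture, between 1048471 and 2579766 after 3 days, and between 2623911 and 3567326 in monoculture. Values of the 10 genes ran from 16.2 to 910.5 normalised counts, resting on 15 to 1308 reads per library. Each co-culture group was set against monoculture to ask what differs in sorted fibroblasts after culture with carcinoma cells. The 5-day co-culture was set against the 3-day co-culture to ask how levels in co-culture differ with time. There was no 3-day monoculture, so in the 3-day comparison co-culture and the number of days cannot be told apart. Both comparisons with monoculture use the same 3 monoculture libraries. An exact two-sided permutation test of 3 against 3 libraries cannot give a p below 0.1, and it gave 0.1 for each pair of groups that did not overlap.

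After 3 days of co-culture 5 of the 10 genes were higher than in monoculture (Nfkb1, Nfkb2, Relb, Tnfaip3 and Birc3) and 0 were lower by limma. Of all genes tested, 10.6% were higher and 9.37% lower in that comparison. After 5 days 4 were higher (Nfkb1, Nfkb2, Relb and Tnfaip3) and 2 were lower (Icam1 and Vcam1), where 12.6% of all genes were higher and 11.4% lower. Between 5 and 3 days of co-culture 0 were higher and 2 were lower (Birc3 and Vcam1), where 3.2% of all genes were higher and 3.71% lower. The median log2 difference of the 10 genes was 0.68 at 3 days against monoculture, 0.21 at 5 days against monoculture and -0.19 for 5 against 3 days, while the median of all genes was 0.00, -0.01 and -0.01. Rela, Nfkbia and Nfkbiz passed in none of the 3 comparisons. The all-gene count for 5 against 3 days, 735, depended on single libraries and was 323 without 3-day replicate 2, and 442, 426 and 458 without 5-day replicates 1, 2 and 3.

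**Figure D1:**
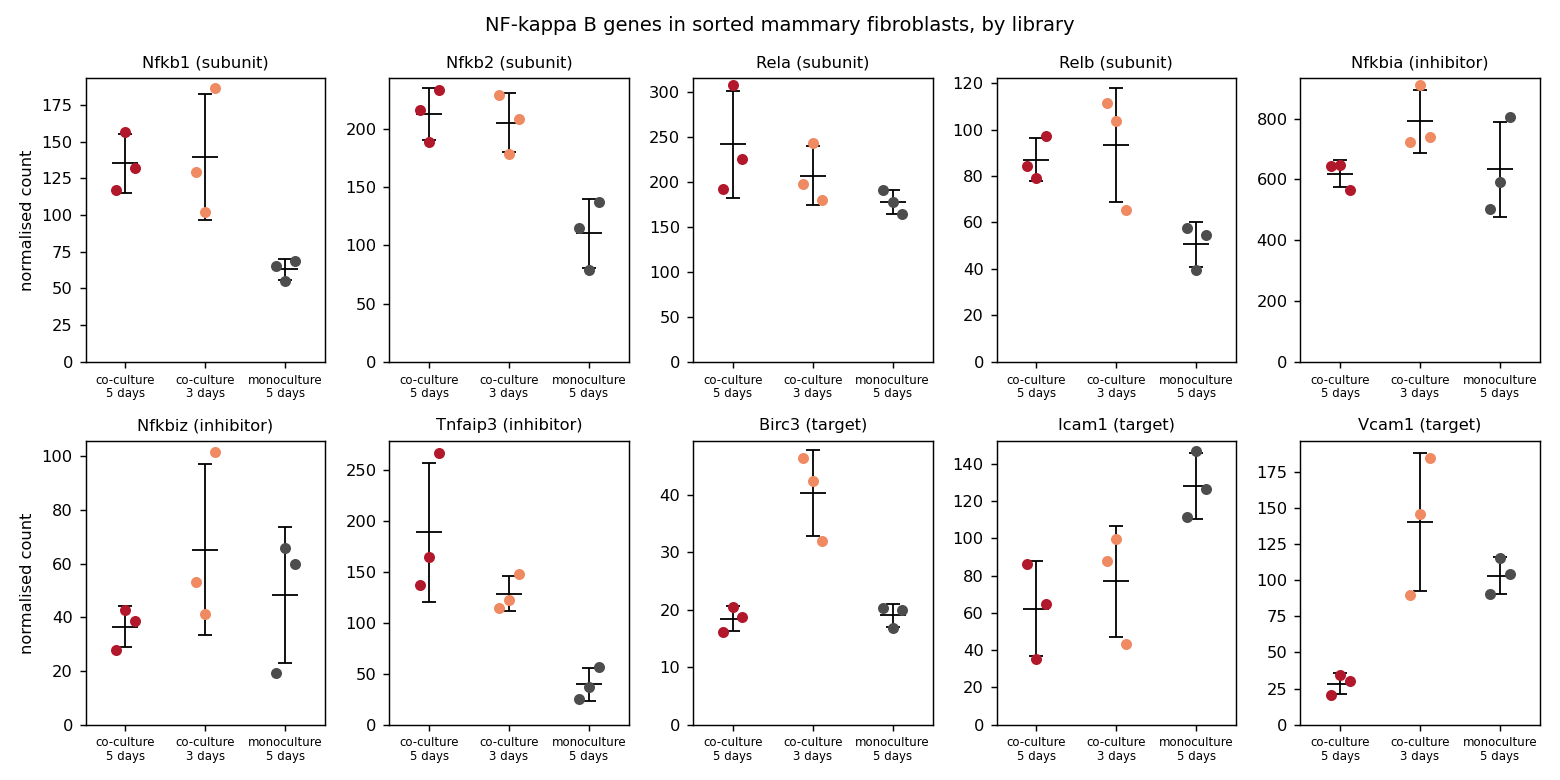
Normalised counts of the 10 genes, 1 panel per gene with its own vertical axis starting at 0. Points are libraries, and the long bar and whiskers are the group mean and SD, with co-culture for 5 days at the left, co-culture for 3 days in the middle and monoculture for 5 days at the right. Both co-culture groups stand clear of monoculture for Nfkb1, Nfkb2, Relb and Tnfaip3, while Vcam1 is low after 5 days and Birc3 is high after 3 days.

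Among the subunits, Nfkb1, Nfkb2 and Relb rose in both co-culture groups. Nfkb1 encodes a precursor whose processed form is a DNA-binding subunit of the classical pathway. It had 116.8, 156.5 and 132.3 normalised counts after 5 days of co-culture, 129.5, 102.3 and 186.4 after 3 days, and 65.0, 55.3 and 68.8 in monoculture. Every co-culture library lay above every monoculture library, and the co-culture groups overlapped each other. The log2 difference from monoculture was 1.08 at 5 days (SE 0.227, limma adjusted p = 0.0024) and 1.10 at 3 days (SE 0.227, adjusted p = 0.0027). The difference between 5 and 3 days was -0.01, with a 95% interval of -0.49 to 0.47.

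Nfkb2 encodes the precursor of the alternative pathway, which binds Relb and holds it back until it is processed. Its level was 216.5, 189.1 and 233.5 normalised counts after 5 days, 229.2, 178.2 and 208.7 after 3 days, and 115.1, 78.8 and 137.5 in monoculture. Again the co-culture libraries were all above the monoculture libraries. The log2 difference from monoculture was 0.97 at 5 days (SE 0.212, limma adjusted p = 0.0032) and 0.92 at 3 days (SE 0.212, adjusted p = 0.0057). Between 5 and 3 days it was 0.06 (95% interval -0.39 to 0.50). The last 299 bases of Nfkb2 overlap Psd on the opposite strand, the strand setting of the counting is not stated, and Psd itself had between 0.9 and 16.7 normalised counts.

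Relb, the partner of processed Nfkb2 in the alternative pathway, had 84.5, 79.2 and 97.4 normalised counts after 5 days, 111.3, 103.7 and 65.4 after 3 days, and 57.6, 39.4 and 54.6 in monoculture. The lowest co-culture library, at 65.4, was still above the highest monoculture library, at 57.6. The log2 difference was 0.79 at 5 days (SE 0.240, limma adjusted p = 0.025) and 0.86 at 3 days (SE 0.240, adjusted p = 0.019). The 3-day call was lost without 3-day replicate 1 (adjusted p = 0.069), 3-day replicate 2 (0.080) or monoculture replicate 2 (0.091). The 5-day call was lost without 5-day replicate 1 (adjusted p = 0.057), 5-day replicate 3 (0.086) or monoculture replicate 2 (0.11).

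Rela, which carries the transactivation domain of the classical dimer, passed in no comparison. It had 192.3, 307.4 and 224.7 normalised counts after 5 days, 197.6, 242.9 and 179.5 after 3 days, and 190.6, 176.9 and 164.5 in monoculture. The 5-day libraries were all above the monoculture libraries, by as little as 192.3 against 190.6. The log2 difference from monoculture was 0.42 at 5 days, with a 95% interval of -0.01 to 0.84 and a limma adjusted p of 0.15. At 3 days it was 0.21, with an interval of -0.21 to 0.64 and an adjusted p of 0.50. An increase of the size seen for Nfkb1 lies outside both intervals.

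Of the inhibitory side, Tnfaip3 rose the most of the 10 genes by fold in both comparisons with monoculture. It encodes a ubiquitin-editing enzyme that shuts off signalling upstream of the I-kappa B kinases. It had 136.6, 163.9 and 265.9 normalised counts after 5 days, 114.6, 122.5 and 147.5 after 3 days, and 24.8, 37.0 and 56.6 in monoculture. The lowest co-culture library was above the highest monoculture library. The log2 difference was 2.25 at 5 days (SE 0.287, limma adjusted p = 2.9e-05), a 4.75-fold difference. At 3 days it was 1.74 (SE 0.287, adjusted p = 0.00044), a 3.35-fold difference. The 5-day and 3-day libraries overlapped, and their log2 difference of 0.51 (95% interval -0.11 to 1.11) had an adjusted p of 0.32.

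Nfkbia encodes I-kappa B alpha, the classical cytoplasmic inhibitor and itself a target of the pathway. Its values were 643.3, 646.4 and 566.8 normalised counts after 5 days, 724.0, 910.5 and 740.2 after 3 days, and 501.3, 592.7 and 804.7 in monoculture. The monoculture libraries overlapped those of both co-culture groups. Against monoculture its log2 difference was -0.01 at 5 days, with a 95% interval of -0.41 to 0.40 and a limma adjusted p of 0.99. The 3-day difference was 0.34, with an interval of -0.06 to 0.75 and an adjusted p of 0.22. All 5-day libraries lay below all 3-day libraries, with a log2 difference of -0.35 and an adjusted p of 0.30. The printed promoter stretches of Nfkbia and Tnfaip3 both hold a match, and the RNA of Tnfaip3 passed in both comparisons with monoculture while that of Nfkbia passed in neither.

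Nfkbiz encodes a nuclear I-kappa B protein that, unlike Nfkbia, also acts as a cofactor for a subset of target genes. It had 27.9, 42.8 and 38.7 normalised counts after 5 days, 53.1, 41.1 and 101.6 after 3 days, and 19.2, 65.9 and 59.8 in monoculture. All 3 groups overlapped. Its log2 differences were -0.24 at 5 days and 0.50 at 3 days against monoculture, and -0.74 for 5 against 3 days, with limma adjusted p of 0.73, 0.42 and 0.31. The 95% interval of the last, -1.60 to 0.12, shows how little these libraries limit it.

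The 3 target genes each had a pattern of their own. Birc3 encodes an inhibitor-of-apoptosis protein and ubiquitin ligase of the receptor complexes. It had 16.2, 20.5 and 18.7 normalised counts after 5 days, 46.5, 42.5 and 32.0 after 3 days, and 20.4, 16.8 and 19.9 in monoculture. The 3-day libraries were all above the others, and the 5-day and monoculture libraries overlapped. These values rest on 15 to 22 reads per library at 5 days, 23 to 61 at 3 days and 31 to 35 in monoculture. Against monoculture its log2 difference was -0.04 at 5 days, with a 95% interval of -0.61 to 0.53. The 3-day difference was 1.03 (SE 0.268, limma adjusted p = 0.012). For 5 against 3 days it was -1.08 (SE 0.268, adjusted p = 0.024).

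Those Birc3 calls rested on few reads and did not hold in every set of libraries. The 3-day difference from monoculture was lost without monoculture replicate 2 (limma adjusted p = 0.052). The difference between 5 and 3 days was lost without 3-day replicate 1 (adjusted p = 0.076), 3-day replicate 2 (0.094), 5-day replicate 1 (0.081) or 5-day replicate 3 (0.056). Birc2, a close relative 11634 bases from Birc3 on chromosome 9, averaged 17.3 normalised counts at 5 days, 38.9 at 3 days and 34.3 in monoculture. Birc2 fell at 5 days against monoculture, with a log2 difference of -0.93 and a limma adjusted p of 0.019. That call was lost without 5-day replicate 2 (adjusted p = 0.077) or monoculture replicate 2 (0.11). Whether related sequence affected the counting of the 2 genes was not tested.

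Vcam1 encodes the vascular cell adhesion molecule, a ligand of the leukocyte integrin made of Itga4 and Itgb1 that is also present on inflamed fibroblasts. It had 20.7, 34.5 and 30.0 normalised counts after 5 days, 89.7, 146.2 and 185.0 after 3 days, and 90.4, 115.8 and 104.1 in monoculture. All 5-day libraries were far below all the others, while the 3-day and monoculture libraries overlapped. The log2 difference of 5 days from monoculture was -1.85 (SE 0.268, limma adjusted p = 9.8e-05), which is 3.61-fold lower. For 5 against 3 days it was -2.23 (adjusted p = 0.00016), or 4.70-fold lower. At 3 days the difference from monoculture was 0.38 (95% interval -0.19 to 0.95, adjusted p = 0.35).

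Icam1, the intercellular adhesion molecule bound by integrins that contain Itgb2, had 86.3, 35.4 and 64.9 normalised counts after 5 days, 88.0, 99.5 and 43.1 after 3 days, and 111.4, 146.6 and 126.6 in monoculture. Every co-culture library was below every monoculture library. The log2 difference from monoculture was -1.11 at 5 days (SE 0.325, limma adjusted p = 0.020) and -0.81 at 3 days (SE 0.325, adjusted p = 0.093). The 5-day call was lost without 5-day replicate 2 (log2 difference -0.76, adjusted p = 0.11), monoculture replicate 2 (0.065) or monoculture replicate 3 (0.051). Between 5 and 3 days the difference was -0.31 with an adjusted p of 0.64. The end of Icam1 shares 511 bases with an antisense transcript, Gm47079, whose reads cannot be told apart from Icam1 reads if counting ignored the strand.

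**Figure D2:**
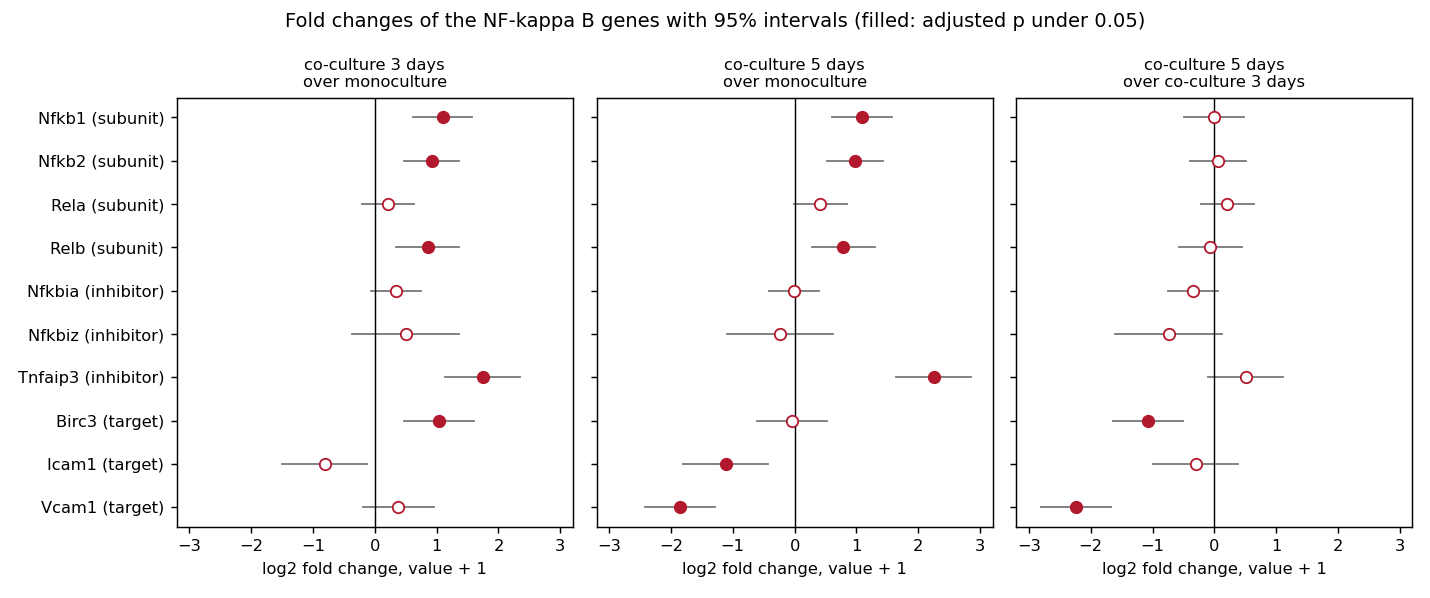
Log2 differences of the 10 genes on the log2(value + 1) scale with 95% intervals, for 3-day co-culture against monoculture (left), 5-day co-culture against monoculture (middle) and 5-day against 3-day co-culture (right). Filled symbols passed the adjusted p of 0.05 and open symbols did not. Tnfaip3 lies highest against monoculture, at 1.74 for 3 days and 2.25 for 5 days, and Vcam1 lies lowest in the middle and right panels, at -1.85 and -2.23.

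The position of each gene was taken from GENCODE M21 on mm10, and all 10 are annotated as protein coding. Nfkb1 spans chr3:135584655-135691547 and Vcam1 chr3:116109949-116129688, both on the minus strand. Nfkb2 (chr19:46304320-46312385) and Rela (chr19:5637483-5648130) lie on the plus strand. Icam1 (chr9:21015985-21028817, plus strand) and Birc3 (chr9:7848699-7873186, minus strand) share chromosome 9. Relb (chr7:19606217-19629438), Tnfaip3 (chr10:19000910-19015657), Nfkbia (chr12:55489410-55492647) and Nfkbiz (chr16:55811375-55838899) are on the minus strand. The libraries capture transcript ends, so isoforms that differ elsewhere in a gene were not resolved.

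Likeness of pattern was measured as the root mean square difference between genes' log2 values across the 9 libraries, after centring each gene, over all tested genes outside the 10, low ones included. The nearest genes to Vcam1 were Cxcl1 (0.28), Hmmr (0.36) and Setdb2 (0.38), the last at only 1.03 normalised counts after 5 days, 6.07 after 3 days and 6.73 in monoculture. Tnfaip3 lay nearest to Ctsc (0.29), Ezr (0.30) and Timp1 (0.31), and Birc3 to Grk5 (0.12), Lonp1 (0.15) and Mthfd2 (0.17). Nfkb1 had Tigar, Gpd2 and Kansl3 as neighbours, Nfkb2 had Plk2, Tbc1d2 and Smurf2, Relb had Lsm11, Acbd4 and Mrps10, and Icam1 had Arl6, Rnd3 and Tmem121. Within the 10 genes, Nfkb2 was nearest to Relb (0.25) and Nfkb1 to Nfkb2 (0.27). Each of these subunits lay closer to genes outside the 10, at 0.165 for Nfkb1 and Tigar, 0.145 for Nfkb2 and Plk2, and 0.143 for Relb and Lsm11. These figures describe 9 libraries in 3 groups and carry no test.

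The other listed genes of the pathway numbered 153, of which 122 were tested. At 5 days against monoculture 32 were higher and 23 lower, with a median log2 difference of 0.15. Over all genes tested, 12.6% were higher and 11.4% lower. At 3 days 40 were higher and 17 lower, with a median of 0.23, beside 10.6% and 9.37% of all genes. For 5 against 3 days 4 were higher and 14 lower, with a median of -0.23, beside 3.2% and 3.71% of all genes. The 18 called became 9 without 3-day replicate 2. Each list count below is to be set beside these same shares, and a count near its share says nothing particular about the list. The lists are given next, and the genes named are a selection, made after their values were seen, from the called genes with the smallest adjusted p in each list.

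Of the receptors, 17 were tested; 3 were higher and 5 lower at 5 days, and 3 were higher and 6 lower at 3 days, against monoculture. Cd40, which signals to the alternative pathway, averaged 47.4 normalised counts at 5 days, 100.4 at 3 days and 7.87 in monoculture. It rose by 2.44 on the log2 scale at 5 days (limma adjusted p = 2.5e-06) and by 3.51 at 3 days (9.6e-08). Il1r1, the signalling receptor of interleukin 1, averaged 23.2, 50.7 and 180.8 in the same order of groups, with log2 differences of -2.93 at 5 days (adjusted p = 2.4e-07) and -1.83 at 3 days (5.0e-05). Ltbr, the lymphotoxin beta receptor and another input of the alternative pathway, averaged 393.0 normalised counts at 5 days, 383.5 at 3 days and 684.0 in monoculture. It was lower in both co-cultures, with log2 differences of -0.80 (adjusted p = 0.0018) and -0.83 (0.0016).

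Of the ligands, 9 were tested, and 2 were higher and 3 lower at 5 days, with 3 higher and 3 lower at 3 days. Il1a, which encodes interleukin 1 alpha, had 91 reads in the 5-day libraries, 104 in the 3-day libraries and 0 in monoculture. With a floor of 3 reads over the group, it was at least 52.5-fold higher at 5 days and at least 62.8-fold higher at 3 days. Tnfsf15, a ligand of the tumour necrosis factor family, averaged 367.0 normalised counts at 5 days, 222.3 at 3 days and 3.33 in monoculture. It rose by 6.44 (limma adjusted p = 2.4e-10) on the log2 scale at 5 days. Il1rn, which encodes the antagonist of the interleukin 1 receptor, fell by 5.18 at 5 days (adjusted p = 4.5e-06), at 1.23 normalised counts against 73.0 in monoculture.

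The kinase and adaptor list had 25 tested genes, with 1 higher and 3 lower at 5 days and 3 higher and 2 lower at 3 days. Map3k14, the kinase that triggers processing of the Nfkb2 precursor, averaged 23.1 normalised counts at 5 days, 15.9 at 3 days and 37.6 in monoculture. It fell by 1.18 on the log2 scale at 3 days (limma adjusted p = 0.0078), and its difference at 5 days was -0.70 (adjusted p = 0.090). Ripk1, a scaffold of the tumour necrosis factor receptor complex, had log2 differences of -1.34 at 5 days (adjusted p = 0.0037) and -1.22 at 3 days (0.0084). The 3-day count of called kinase genes, 5, was 3 without 3-day replicate 2 and 3 without monoculture replicate 2.

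Inhibitors and feedback regulators outside the 10 genes came next. Of 5 tested I-kappa B genes 1 was higher in each comparison with monoculture. It was Nfkbie, which encodes I-kappa B epsilon, at 41.0 normalised counts after 5 days, 43.1 after 3 days and 19.8 in monoculture. Its log2 difference was 1.01 at 5 days (limma adjusted p = 0.0094) and 1.07 at 3 days (0.0074). Of 16 tested feedback genes 4 were higher and 1 lower at 5 days, and 3 were higher and 1 lower at 3 days. Tnip1, which encodes a partner of the Tnfaip3 protein, averaged 110.3 at 5 days, 147.7 at 3 days and 64.5 in monoculture. Its log2 difference was 0.76 at 5 days (adjusted p = 0.015) and 1.16 at 3 days (0.0010).

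The feedback gene that fell was Zfp36, which encodes a protein that destabilises cytokine mRNAs. It averaged 63.4 normalised counts at 5 days, 100.1 at 3 days and 561.4 in monoculture, a log2 difference of -3.15 at 5 days (limma adjusted p = 4.7e-08) and -2.48 at 3 days (1.0e-06). The 5-day feedback count, 5 genes in all, was 1 without 5-day replicate 3 and 1 without monoculture replicate 3, and 3 without 5-day replicate 2 or monoculture replicate 1. Tnip1 at 5 days lost its call without 5-day replicate 3 (adjusted p = 0.066) or monoculture replicate 3 (0.056).

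**Figure D3:**
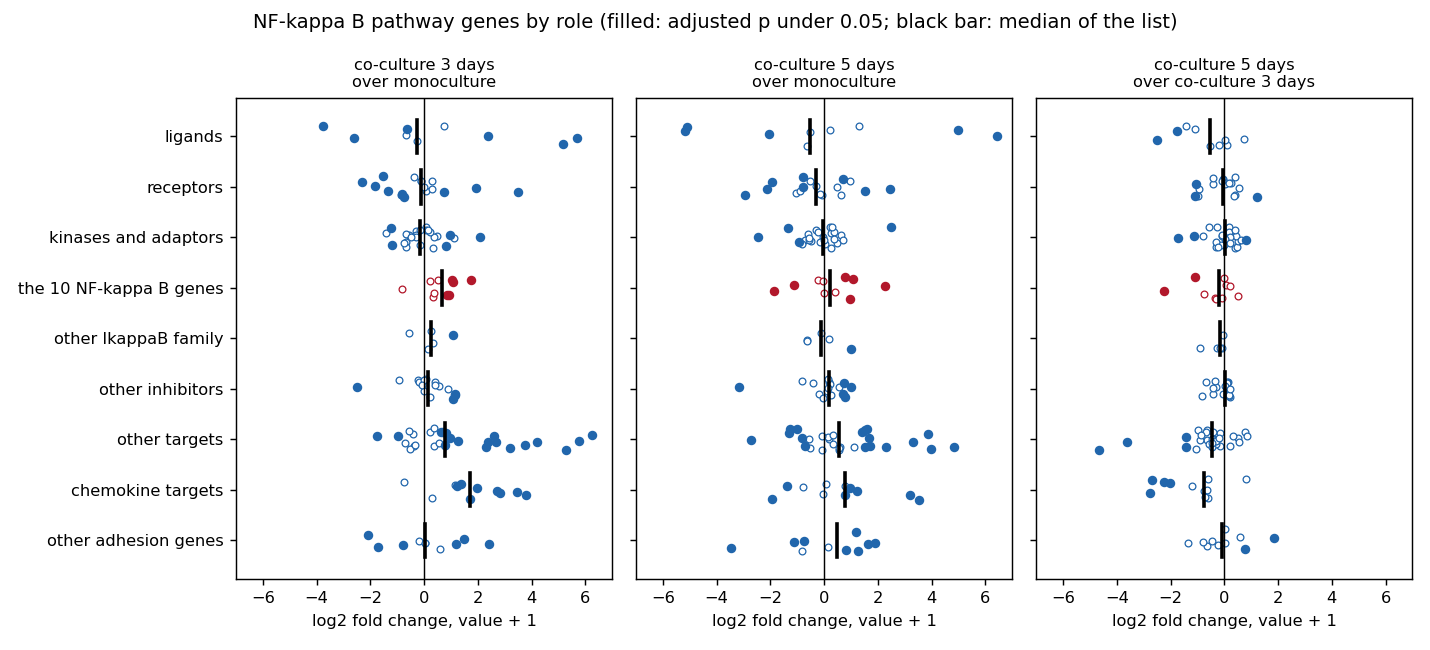
Log2 differences of the tested pathway genes by list, on the log2(value + 1) scale, with 1 point per gene, the 10 genes in red, and panels for 3-day co-culture against monoculture, 5-day co-culture against monoculture and 5-day against 3-day co-culture. Filled points passed the adjusted p of 0.05 and black bars are list medians. The chemokine list has the highest median at 3 days against monoculture, 1.73, and one of -0.77 for 5 against 3 days.

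Chemokines are targets that draw leukocytes to the tissue. Of 11 tested, 5 were higher and 2 lower at 5 days against monoculture, 8 were higher and 0 lower at 3 days, and 0 were higher and 4 lower at 5 against 3 days. Their median log2 difference was 0.77, 1.73 and -0.77 in those comparisons. Cxcl1, a neutrophil attractant, averaged 383.0 normalised counts at 5 days, 1881 at 3 days and 1488 in monoculture. It was lower at 5 days against both monoculture (log2 difference -1.95, limma adjusted p = 0.00047) and 3 days (-2.24, adjusted p = 0.00084), with 0.29 (adjusted p = 0.60) for 3 days against monoculture. Cxcl2, another neutrophil attractant, averaged 44.5 at 5 days, 292.0 at 3 days and 39.2 in monoculture, and was higher at 3 days (2.84, adjusted p = 6.3e-05) and lower at 5 against 3 days (-2.76, adjusted p = 0.00036).

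Cxcl10 and Ccl5 were higher in both co-culture groups. Cxcl10, a T cell attractant that interferons also induce, averaged 80.7 normalised counts at 5 days, 45.1 at 3 days and 6.13 in monoculture. It rose by 3.52 on the log2 scale at 5 days (limma adjusted p = 1.1e-05) and by 2.73 at 3 days. Ccl5, a T cell and monocyte attractant, averaged 28.1 at 5 days, 41.7 at 3 days and 2.5 in monoculture, a log2 difference of 3.18 at 5 days and 3.78 at 3 days.

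Of 29 tested survival, cytokine and matrix targets, 11 were higher and 6 lower at 5 days against monoculture. At 3 days 16 were higher and 2 lower, and for 5 against 3 days 0 were higher and 4 lower. Saa3, an acute-phase protein gene, averaged 1020 normalised counts at 5 days, 12140 at 3 days and 652.3 in monoculture. It rose by 4.22 on the log2 scale at 3 days (limma adjusted p = 1.0e-05) and was lower at 5 against 3 days (-3.62, adjusted p = 0.00022). Mmp9, which encodes a matrix metalloproteinase, averaged 1398 at 5 days, 3799 at 3 days and 49.0 in monoculture, and was also lower at 5 against 3 days (-1.44, adjusted p = 0.00015). Sdc4, a cell surface proteoglycan gene, was lower in both co-cultures, with log2 differences of -2.73 at 5 days (adjusted p = 1.4e-05) and -1.75 at 3 days (0.0013).

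Of 10 tested adhesion genes other than Icam1 and Vcam1, 5 were higher and 3 lower at 5 days, and 3 were higher and 3 lower at 3 days. Both subunits of the Vcam1 receptor, Itgb1 and Itga4, were higher in both co-culture groups. Itgb1 averaged 3378 normalised counts at 5 days, 3340 at 3 days and 1470 in monoculture, with a log2 difference of 1.20 at 5 days (limma adjusted p = 6.1e-05) and 1.18 at 3 days (0.00010). Itga4 averaged 19.7, 35.9 and 6.67 in the same order, with log2 differences of 1.62 (adjusted p = 0.011) and 2.43 (0.00076). The 5-day call of Itga4 was lost without 5-day replicate 2 (adjusted p = 0.055) or monoculture replicate 2 (0.0503). The 5-day adhesion count, 8 in all, was 4 without 5-day replicate 1 or monoculture replicate 3, and 5 without monoculture replicate 2. The 3-day count, 6 in all, was 3 without 3-day replicate 1 or monoculture replicate 3.

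Across the 10 genes and the lists together, 20 genes differed between 5 and 3 days of co-culture, 16 of them lower at 5 days. Of all genes tested, 3.2% were higher and 3.71% lower in that comparison. The 4 that were higher were Ncam1, Tradd, Tnfrsf11b and Alcam. Many of these calls depended on single libraries. Without 3-day replicate 2 the calls of Birc2, Birc3, Irak3, Il1r1, Tnfrsf11b, Tnfsf11, Il33, Lcn2, Tradd and Ncam1 were lost (limma adjusted p from 0.056 to 0.094). Without 5-day replicate 1 those of Birc3, Irak3, Il1r1, Tradd and Ncam1 were lost (0.051 to 0.15). Leaving out 5-day replicate 2 ended those of Birc2, Cd40, Lcn2, Tradd and Ncam1 (0.054 to 0.083), and 5-day replicate 3 those of Birc3, Irak3, Cd40, Il33, Tnfrsf11b and Ncam1 (0.056 to 0.12). Leaving out 3-day replicate 1 ended those of Birc3, Irak3 and Cd40 (0.062 to 0.091), and 3-day replicate 3 those of Tradd and Ncam1 (0.079 and 0.13). Ncam1 was also lost without any 1 of the monoculture libraries (0.051 to 0.062). Other settings ended the calls of Irak3 (edgeR 0.062, DESeq2 0.064, the fit of both groups alone 0.052), Tnfsf11 (edgeR 0.063, pseudocount of 5 0.12), Ncam1 (edgeR 0.053, quantile normalization 0.052, the fit of both groups alone 0.059) and Tradd (the same fit, 0.055). Alcam, which encodes an activated leukocyte adhesion molecule, averaged 39.6 normalised counts at 5 days, 9.8 at 3 days and 9.93 in monoculture. Its log2 difference for 5 against 3 days was 1.86 (limma adjusted p = 0.0046), opposite in sign to that of Vcam1, at -2.23.

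**Figure D4:**
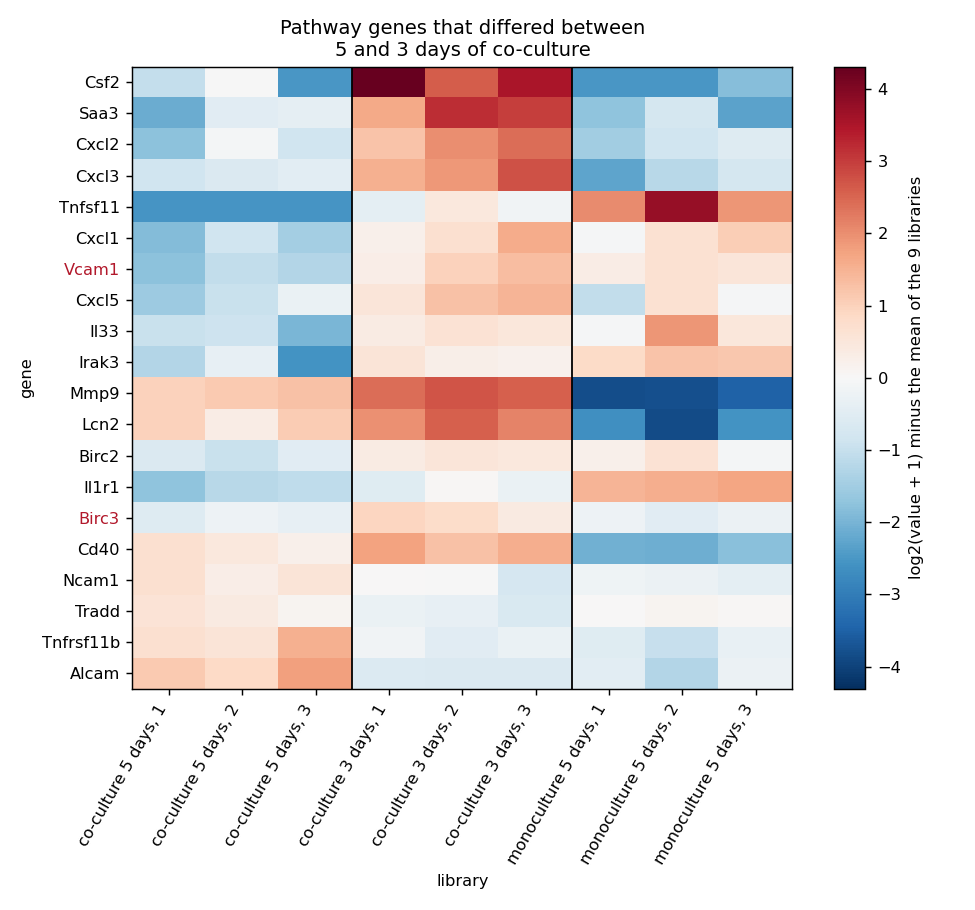
Heat map of the 20 pathway genes, with Birc3 and Vcam1 in red type, that differed between 5 and 3 days of co-culture. Colour is the log2(value + 1) of each library minus the gene's mean over all libraries, and columns are the 3 libraries each of co-culture for 5 days, co-culture for 3 days and monoculture. The upper 16 genes are lower at 5 than at 3 days, and the lower 4 are higher.

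The label of the cells was set against marker lists. Fibroblast markers, 12 of 12, summed to between 39672.6 and 54083.6 normalised counts at 5 days, 44278.2 and 55448.0 at 3 days, and 45004.9 and 62624.4 in monoculture, led by Col1a1 and Col1a2. Col1a1 and Col1a2 passed in no comparison, but 6 of the 12 markers were lower and 1 was higher at 5 days against monoculture (median log2 difference -0.98), and 5 were lower and 0 higher at 3 days (median -0.12). Pdgfra, a receptor that marks fibroblasts, averaged 21.0 normalised counts at 5 days, 51.7 at 3 days and 189.3 in monoculture. Its log2 difference from monoculture was -3.08 at 5 days (limma adjusted p = 2.6e-07) and -1.82 at 3 days (8.7e-05). Thy1, another fibroblast surface marker, had log2 differences of -1.47 at 5 days (adjusted p = 9.6e-06) and -0.75 at 3 days (0.0049). For 5 against 3 days 3 fibroblast markers were lower and 1 was higher. At 5 days fibroblast markers were thus lower in the same libraries as Icam1 and Vcam1. At 3 days 5 fibroblast markers were lower, and neither Icam1 nor Vcam1 passed. The log2 difference of Icam1 from monoculture was -0.81 at 3 days (limma adjusted p = 0.093). Every 3-day library of Icam1 was still below every monoculture library, and its 3-day and 5-day libraries overlapped. For Vcam1 the 3-day difference was 0.38 (adjusted p = 0.35), and its 3-day and monoculture libraries overlapped. The part of the fibroblast markers in those results was not tested. Pdgfra and Thy1 were chosen after their values were seen. Of the epithelial markers 14 of 15 tested were higher in each co-culture group than in monoculture. Their sum, over 16 of 20 listed, ran from 1145.7 to 1581.6 at 5 days, 1159.2 to 1335.5 at 3 days and 55.5 to 86.6 in monoculture. Over the monoculture libraries Cldn3 and Elf3 had 0 reads and Epcam had 1 read, while Krt18 had 140 and Krt19 had 86. The epithelial list includes Lcn2, which the target list holds as well. Epithelial markers were thus higher in the same libraries as Nfkb1, Nfkb2, Relb and Tnfaip3. The same holds for listed genes that rose in both co-cultures, among them Il1a, Tnfsf15, Cd40, Mmp9, Cxcl10, Ccl5 and Itga4. Cldn3, like Il1a, had 0 reads in monoculture, with 31 at 5 days and 43 at 3 days. The part of carcinoma cell RNA in all those results was not tested. Leukocyte markers, over 12 of 16, summed to between 84.6 and 181.7 at 5 days, 127.9 and 412.2 at 3 days, and 105.3 and 320.3 in monoculture. None of the 8 tested leukocyte markers was higher in either co-culture, and 1 was lower at 5 days against monoculture and against 3 days. Endothelial markers (3 of 12) summed to between 37.2 and 38.7 at 5 days, 50.7 and 64.7 at 3 days, and 25.5 and 30.9 in monoculture. Pericyte markers (4 of 7) summed to between 165.8 and 217.5, 133.7 and 177.7, and 45.2 and 87.3 in the same groups. The part of leukocyte, endothelial and pericyte RNA in the results was not tested either. In sorted populations sequenced in bulk, fewer cells of a type and less RNA per cell cannot be told apart.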

How the data were processed

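The 9 libraries were made from the 3′ ends of mRNA. Per the submitters' processing notes, bcl2fastq, STAR 2.4.2a, HTSeq and mm10 were used; the annotation, the strand setting and the source of the library factors are not given in the sources used here. The authors deposited normalised counts, that is, a signal equal to each library's counts over a factor of its own. Whole reads were recovered from the deposited values, with 99.58% to 100% of a library's values whole within a tolerance of 0.051, and counting floors cover counting error only. The column taken as 5-day co-culture replicate 2 names no carcinoma cells. It was placed there because monoculture columns are marked as such and replicate 2 of the monoculture has its own. Of the table's genes, 18 carried date-like names.

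Genes reaching 5 in 3 or more libraries were tested with limma 3.58.1 (R 4.3.3, lmFit and eBayes with trend, all 9 libraries in 1 model) on log2(value + 1), two-sided, so fold changes of low genes are understated. Reads were also tested with edgeR 4.0.16 (quasi-likelihood), which called 2239, 2736 and 677 genes for 3 days against monoculture, 5 days against monoculture and 5 against 3 days, and with DESeq2 1.42.0. The limma step was tested on simulated data. The 10 genes and all lists were chosen with earlier results of these data known. The rule named all 10 genes, and up to 4 called genes per pathway list and comparison by the smallest adjusted p. It also named the 2 highest markers per cell type and the nearest 3 genes of each called gene. The text names a selection of these made after the values were seen. Cldn3, Elf3, Epcam, Pdgfra and Thy1 were named outside the rule, also after their values were seen. Alternatives were other pseudocounts, filters and scalings, a replicate block, a fit of the compared groups only, both count models and leaving out each library. For the listed pathway genes these were added after the data were seen.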

Additional observations from a re-analysis of the deposited data

Results flagged for a closer look

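In 2 of the 10 genes the level in co-culture differed between the time points, tested directly as 5 against 3 days. Vcam1 had a log2 difference of -2.23 (limma adjusted p = 0.00016), with 28.4 ± 7.04 normalised counts at 5 days and 140.3 ± 47.9 at 3 days (SD, n = 3 each). Its 5-day libraries were all below its 3-day libraries. The Vcam1 difference passed under every alternative tried, the highest adjusted p being 0.0025. Birc3 had a log2 difference of -1.08 (limma adjusted p = 0.024), with 18.5 ± 2.16 normalised counts at 5 days and 40.3 ± 7.49 at 3 days (SD, n = 3 each). The 2 groups did not overlap for Birc3 either. Its adjusted p ranged from 0.021 to 0.094 over the alternatives. In neither case is there a 3-day monoculture to set the 3-day level against, so a change in the response to co-culture was not tested.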

How the results depend on the processing

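For the 10 genes in 3 comparisons, 600 values were recomputed under the alternatives. Of these, 569 kept their direction and their side of the threshold, 14 kept the direction and lost the call, and 17 changed sign, as did 20 values of listed genes; 0 of the sign changes concern a difference that was called in either setting. The 14 lost calls came from leaving out 1 library and concern Relb, Birc3 and Icam1. Among the 10 genes, log2 differences that changed sign ranged, with 1 library left out, from -0.0502 to 0.81 for Nfkbiz at 3 days against monoculture; at 5 days against monoculture from -0.13 to 0.0436 for Birc3 (0.0074 with quantile normalization), -0.16 to 0.18 for Nfkbia and -0.79 to 0.0745 for Nfkbiz; and for 5 against 3 days from -0.21 to 0.22 for Nfkb1, -0.0432 to 0.14 for Nfkb2 (-0.0142 with quantile normalization), -0.31 to 0.073 for Relb and -0.67 to 0.0486 for Icam1. For listed genes the ranges at 3 days against monoculture were -0.69 to 0.29 for Il33, -0.10 to 0.59 for Cxcl1, -0.26 to 0.25 for Alcam (-0.0050 with edgeR and -0.0111 with DESeq2) and -0.0833 to 0.28 for Ncam1, and at 5 days against monoculture -0.33 to 0.50 for Cxcl2. For 5 against 3 days they were -0.17 to 0.11 for Nfkbie, -0.35 to 0.056 for Ripk1, -0.0195 to 0.0978 for Ltbr (-0.0476 with quantile normalization), -0.49 to 0.00733 for Il1a, -0.0697 to 0.0755 for Itgb1 and -0.44 to 0.0872 for Itgb2. The cause was not tested. The count of called genes among the 10 with 1 library left out was 3 to 5 for 3 days against monoculture, 4 to 6 for 5 days against monoculture and 1 to 2 for 5 against 3 days, with 3 in the first and 4 in the second only without monoculture replicate 2. Among all genes the count for 5 against 3 days was 323 to 739 with 1 library left out, against 735 with all. A block for the replicate number gave 5, 6 and 2 calls among the 10 genes for 3 days against monoculture, 5 days against monoculture and 5 against 3 days, as without it, and 2219, 2663 and 827 among all genes. Same-numbered libraries correlated between -0.114 and 0.233 in their deviations from the group means, and differently numbered ones between -0.298 and 0.323. The labels repeat the same repetition numbers in each group, and whether a number marks a shared fibroblast preparation is not stated. Correlations in groups this small cannot settle it, and the main fit did not pair the libraries. Depth limits Birc3 most, at 15 reads in its lowest library.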
